A study of Mus musculus with 6 samples.

Results

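The genes described here encode the 5 subunits of the transcription factor NF-kB and 5 of its IkB family inhibitors and cofactors. They were chosen by symbol: Nfkb1, Rela, Rel, Nfkb2, Relb, Nfkbia, Nfkbib, Nfkbie, Nfkbiz and Bcl3. All 10 were found among the 52459 rows of the deposited tables, and all 10 passed the filter on low counts. RNA was sequenced from bone marrow derived macrophages of C57BL/6 mice, grown with GM-CSF and treated overnight from day 7. There were 3 libraries from cultures given RIP1i, an inhibitor of the kinase RIP1, and 3 from cultures given DMSO, the solvent. Neither the compound nor its dose is named in the labels, nor is it said whether replicates were separate cultures or animals, so the p-values cover the spread among these 6 libraries, and that spread may be technical. Library totals ran from 40264902 to 44862310 counts, and the 10 genes had 331 to 7437 counts per library.

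NF-kB is a dimer of Rel-homology proteins. In the canonical branch, signals such as TNF activate the IKK kinase complex, which marks the classical IkB proteins for destruction and frees dimers of RelA or c-Rel with p50. In the noncanonical branch, a smaller set of receptors stabilises the kinase NIK, which drives the processing of p100 to p52, the partner of RelB. RIP1 is a scaffold and kinase at the TNF receptor, where it connects to the canonical branch and to cell death. Several NF-kB genes are themselves known targets of NF-kB, so their mRNA levels also report on the pathway.

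No NF-kB gene passed the test between RIP1i and DMSO. In the quasi-likelihood test of edgeR, 0 of the 10 had an adjusted p under 0.05, against 0% of all 14857 genes tested, and 0 of the 10 had an unadjusted p under 0.05, against 6.21% of all genes. DESeq2 called 2 genes and limma-voom 0 over the whole table, and these were none of the 10. The fitted log2 fold changes, RIP1i minus DMSO, ran from -0.20 for Nfkbiz to 0.18 for Relb. Of the 10, 7 were fitted higher and 3 lower, where 51% of all genes were fitted higher, and the median of the 10 was 0.065 beside 0.0025 over all genes. The 95% intervals of all 10 lay within 1.5-fold in either direction, as did those of 73% of all genes. RIP1i and DMSO libraries did not overlap in CPM (counts scaled by library size, here with TMM factors) for 2 of the 10, Nfkb2 and Nfkbia, against 13.5% of all genes. In both genes RIP1i was above DMSO, as it was for 7.36% of all genes.

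**Figure D1:**
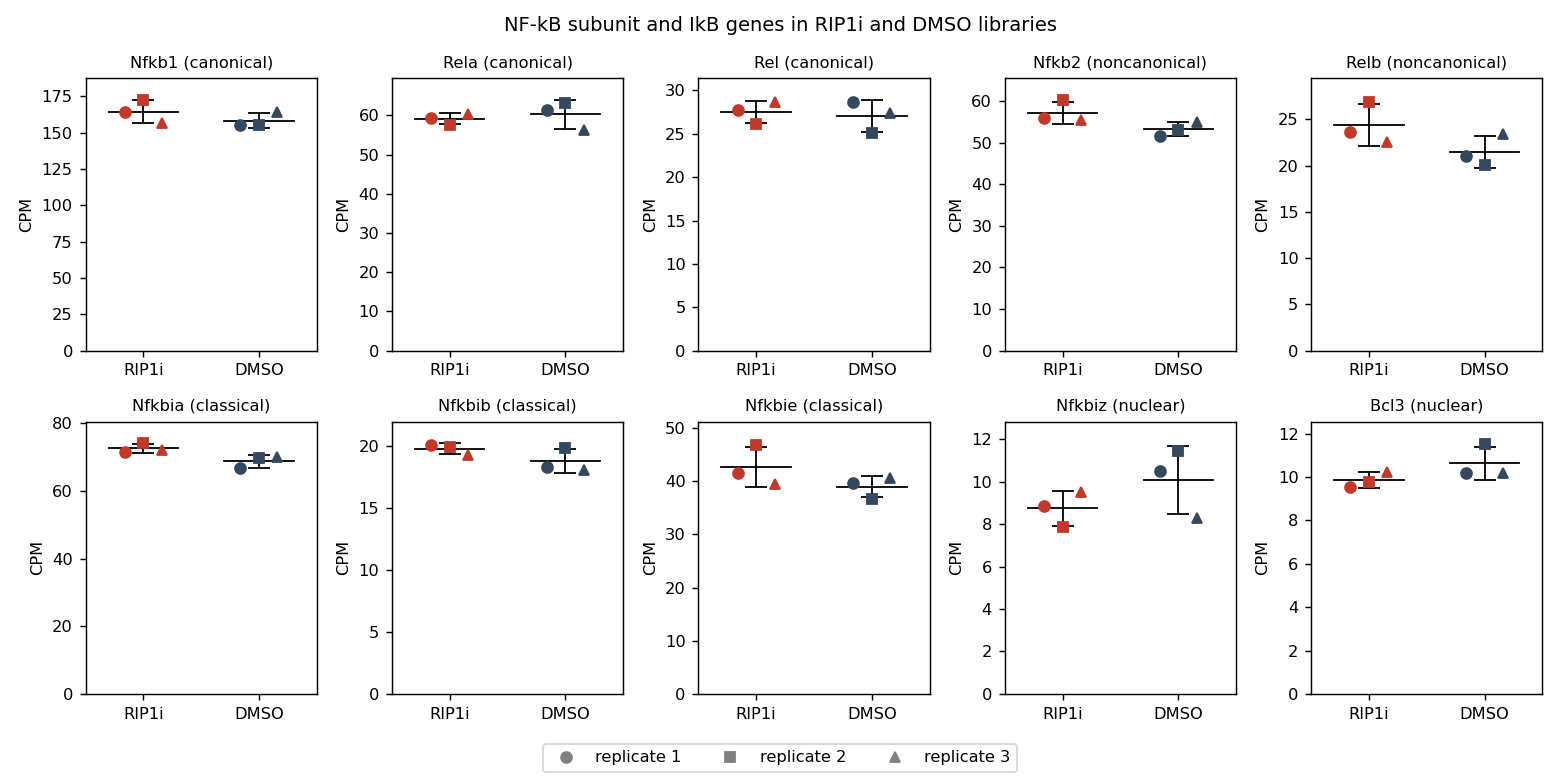
CPM of the 10 genes (y axis, from 0) in the RIP1i and DMSO libraries, 1 symbol per replicate, with the group mean and SD (n = 3). RIP1i replicate 2 was the highest library for Nfkb1, Nfkb2, Relb, Nfkbia and Nfkbie.

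The windows around the transcription starts of these genes are shown because NF-kB genes are known to be controlled by NF-kB itself. RefSeq sequences (build GRCm38.p6, the same assembly as mm10), running from 250 bases before to 50 after a start, were found for 7 of the 10 genes in 9 windows. Nfkb1, Relb and Nfkbiz had none in the table used. The kB consensus motif, GGGRNWYYCC (R for A or G, W for A or T, Y for C or T, N for any base), was searched on both strands. It occurred in 7 of these 9 windows and in 5 of the 7 genes, against 4.51% of 32851 windows and 5.14% of 27025 genes in the whole table. The matched genes were Nfkb2, Rel, Nfkbia, Nfkbie and Bcl3, and Rela and Nfkbib had no match in the window. Nfkb2 has 3 windows with a match, but windows 2 and 3 overlap, and the match in window 3 is a site that window 2 also holds, so that it is counted in both. At the first start, overlapping matches ran from -39 to -29 and another match from -11 to -2, counted from the start as 1. At the second, the exact letters GGGACTTTCC lay at 11 to 20, and these letters occur in 0.155% of all windows. The windows are written 5′ to 3′ on the strand of the gene, with kB matches in capitals. The windows of Nfkb2, Nfkbia and Bcl3 are printed as examples with a match and that of Rela as 1 without. Of the matched genes Nfkb2, Rel, Nfkbia and Nfkbie were fitted higher in RIP1i and Bcl3 lower, and of the unmatched genes Nfkbib was fitted higher and Rela lower, with none passing the test.
Nfkb2 first start, chr19:46304487-46304786, plus strand: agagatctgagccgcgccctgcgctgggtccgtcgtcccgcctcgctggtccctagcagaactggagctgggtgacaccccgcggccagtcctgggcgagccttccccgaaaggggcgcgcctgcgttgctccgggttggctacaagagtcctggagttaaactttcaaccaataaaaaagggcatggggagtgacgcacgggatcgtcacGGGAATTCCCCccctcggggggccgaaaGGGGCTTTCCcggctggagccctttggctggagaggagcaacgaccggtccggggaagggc
Nfkb2 second start, chr19:46305445-46305744, plus strand: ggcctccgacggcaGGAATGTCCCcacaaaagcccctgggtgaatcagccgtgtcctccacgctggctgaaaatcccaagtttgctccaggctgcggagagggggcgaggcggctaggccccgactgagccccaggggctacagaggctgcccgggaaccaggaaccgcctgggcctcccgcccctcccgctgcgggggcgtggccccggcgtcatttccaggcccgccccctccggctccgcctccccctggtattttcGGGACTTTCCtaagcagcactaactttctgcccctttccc
Nfkbia, chr12:55492598-55492897, minus strand: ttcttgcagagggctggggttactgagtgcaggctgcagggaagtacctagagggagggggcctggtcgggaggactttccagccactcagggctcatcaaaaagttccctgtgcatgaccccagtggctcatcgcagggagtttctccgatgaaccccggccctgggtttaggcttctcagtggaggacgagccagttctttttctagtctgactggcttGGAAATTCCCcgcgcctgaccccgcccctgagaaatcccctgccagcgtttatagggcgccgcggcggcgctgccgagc
Bcl3, chr7:19822706-19823005, minus strand: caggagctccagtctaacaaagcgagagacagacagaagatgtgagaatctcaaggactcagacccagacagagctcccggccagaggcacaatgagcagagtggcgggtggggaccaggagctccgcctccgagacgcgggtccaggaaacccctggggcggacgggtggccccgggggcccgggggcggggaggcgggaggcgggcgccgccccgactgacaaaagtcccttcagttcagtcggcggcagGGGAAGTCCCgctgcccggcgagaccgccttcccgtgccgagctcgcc
Rela, chr19:5637291-5637590, plus strand: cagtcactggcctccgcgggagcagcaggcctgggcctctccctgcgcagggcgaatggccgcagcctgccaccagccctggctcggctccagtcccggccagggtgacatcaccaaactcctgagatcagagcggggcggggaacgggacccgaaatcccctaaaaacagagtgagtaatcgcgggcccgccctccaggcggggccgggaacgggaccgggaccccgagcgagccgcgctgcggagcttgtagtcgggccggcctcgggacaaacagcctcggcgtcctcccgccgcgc
A match is a description of letters, and binding was not measured.

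The canonical subunit genes stood at nearly the same level in both groups. Nfkb1 (chromosome 3, 135584655 to 135691547, minus strand, mm10), which encodes p105 and its product p50, had 164, 172 and 156 CPM in RIP1i replicates 1 to 3, against 155, 155 and 164 CPM in the DMSO replicates. The groups overlapped, since DMSO replicate 3 matched RIP1i replicate 1. Its log2 fold change was 0.054 ± 0.048 (SE), with a 95% interval from -0.058 to 0.17, and without RIP1i replicate 2 it was 0.0079. Rela (chromosome 19, 5637483 to 5648130, plus strand), the main transactivating subunit, had 59.2, 57.6 and 60.4 CPM in RIP1i and 61.4, 63.1 and 56.1 CPM in DMSO. All RIP1i values lay inside the DMSO range. The log2 fold change of Rela was -0.027 ± 0.052, with an interval from -0.15 to 0.095, and 0.0013 without DMSO replicate 2. Rel (chromosome 11, 23736847 to 23770970, minus strand), which encodes c-Rel, a subunit prominent in lymphoid and myeloid cells, had 27.7, 26.1 and 28.7 CPM in RIP1i and 28.6, 25.0 and 27.4 CPM in DMSO. Its log2 fold change was 0.025 ± 0.064, with an interval from -0.12 to 0.17, and its sign turned without RIP1i replicate 3 (-0.0088) or DMSO replicate 2 (-0.033).

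Both noncanonical subunit genes were fitted higher in RIP1i without passing. Nfkb2 (chromosome 19, 46304320 to 46312385, plus strand), which encodes p100 and its product p52, had 56.0, 60.2 and 55.3 CPM in RIP1i, against 51.6, 53.0 and 55.0 CPM in DMSO. Every RIP1i library lay above every DMSO library on this scale, by a margin between RIP1i replicate 3 and DMSO replicate 3 that the scaling decides. With median-of-ratios or upper-quartile scaling, and in the deposited FPKM (16.7 in RIP1i replicate 3 and 16.8 in DMSO replicate 3), the groups overlapped. The log2 fold change was 0.10 ± 0.048 (SE), with an interval from -0.0084 to 0.22 and an edgeR adjusted p of 0.777 (unadjusted 0.0651). Relb (chromosome 7, 19606217 to 19629438, minus strand), whose product pairs with p52, had 23.6, 26.9 and 22.5 CPM in RIP1i and 21.1, 20.0 and 23.4 CPM in DMSO. The groups overlapped through DMSO replicate 3, and RIP1i replicate 2 stood highest. The log2 fold change of Relb, 0.18 ± 0.085, had the widest interval of the subunits, from -0.019 to 0.38, and an edgeR adjusted p of 0.777 (unadjusted 0.0700). Without RIP1i replicate 2 the values were 0.055 for Nfkb2 and 0.091 for Relb.

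The classical inhibitors, which hold NF-kB in the cytoplasm, were all fitted higher in RIP1i, and none passed. Nfkbia (chromosome 12, 55489410 to 55492647, minus strand) encodes IkB-alpha, the fast feedback inhibitor that NF-kB itself induces. It had 71.4, 74.2 and 72.2 CPM in RIP1i, against 66.6, 69.7 and 70.1 CPM in DMSO. Every RIP1i library lay above every DMSO library, and this also held with the 2 other scalings and in the deposited FPKM. The log2 fold change of Nfkbia was 0.078 ± 0.039, with an interval from -0.014 to 0.17 and an edgeR adjusted p of 0.786 (unadjusted 0.0850), and it was 0.044 without DMSO replicate 1. Nfkbie (chromosome 17, 45555703 to 45563169, plus strand), which encodes IkB-epsilon, had 41.6, 46.9 and 39.5 CPM in RIP1i and 39.6, 36.7 and 40.6 CPM in DMSO. RIP1i replicate 3 was below DMSO replicates 1 and 3, and RIP1i replicate 2 was far above the rest. The fitted difference was 0.13 ± 0.072 on the log2 scale (interval -0.038 to 0.30), and 0.045 without RIP1i replicate 2. Nfkbib (chromosome 7, 28758251 to 28767512, minus strand), which encodes IkB-beta, had 20.1, 19.9 and 19.3 CPM in RIP1i and 18.3, 19.9 and 18.1 CPM in DMSO, with a log2 fold change of 0.076 ± 0.056 and an interval from -0.054 to 0.21, and it was 0.048 without DMSO replicate 1 and 0.047 without DMSO replicate 3.

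The nuclear IkB proteins bind NF-kB on DNA and act as cofactors. Their 2 genes were fitted lower in RIP1i, and neither passed. Nfkbiz (chromosome 16, 55811375 to 55838899, minus strand), which encodes IkB-zeta, a coactivator for secondary response genes such as Il6, had 8.88, 7.86 and 9.49 CPM in RIP1i and 10.5, 11.4 and 8.31 CPM in DMSO. DMSO replicate 3 was below 2 of the 3 RIP1i libraries. Nfkbiz had the widest interval of the 10 genes, from -0.51 to 0.099 around -0.20, and its fold change was -0.33 without DMSO replicate 3 and -0.11 without DMSO replicate 2. Bcl3 (chromosome 7, 19808462 to 19822770, minus strand), which encodes a partner of p50 and p52 dimers, had 9.55, 9.78 and 10.2 CPM in RIP1i and 10.2, 11.5 and 10.2 CPM in DMSO. Its log2 fold change was -0.11 ± 0.076 (SE), with an interval from -0.28 to 0.069, and -0.053 without DMSO replicate 2. The groups of Bcl3 overlapped with TMM scaling and in the deposited FPKM, and did not with median-of-ratios or upper-quartile scaling. RIP1i replicate 3 and DMSO replicates 1 and 3 were almost equal. A further member of the family, Nfkbid, which encodes the nuclear protein IkBNS, had 16.1, 16.4 and 17.7 CPM in RIP1i, against 19.5, 19.2 and 19.1 CPM in DMSO. Every RIP1i library of Nfkbid lay below every DMSO library, with a log2 fold change of -0.21 ± 0.055 and an edgeR adjusted p of 0.777 (unadjusted 0.00658). It is not among the 10 genes, and 13.5% of all genes tested did not overlap in either direction.

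**Figure D2:**
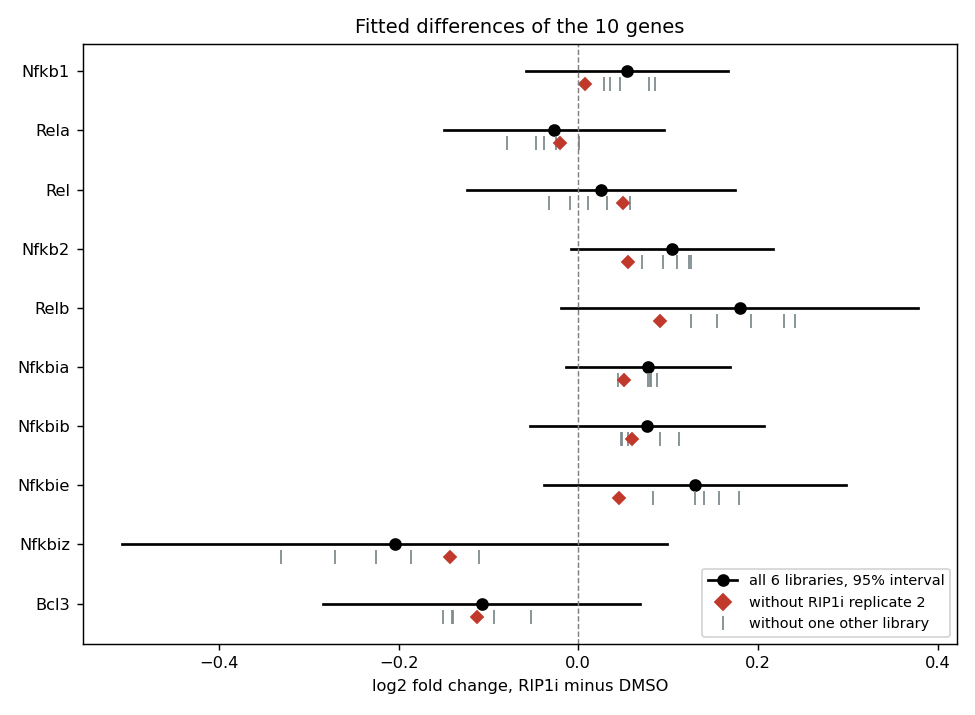
Log2 fold change, RIP1i minus DMSO (x axis), of the 10 genes (rows), with the 95% interval from edgeR as a line and the value after leaving out each library below it. Every interval includes 0, and leaving out RIP1i replicate 2 moved Relb to 0.091 and Nfkbie to 0.045.

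RIP1i replicate 2 gave the highest value for 5 of the 10 genes, where it was highest for 23.5% of all genes tested. These were Nfkb1, Nfkb2, Relb, Nfkbia and Nfkbie. It was also the lowest library for Nfkbiz. DMSO replicate 3 was the highest DMSO library for the same 5 genes and the lowest DMSO library for Rela, Nfkbib and Nfkbiz.

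The branches were set side by side as ratios within a library, which do not depend on library scaling. The FPKM of Nfkb2 over that of Nfkb1 was 1.25, 1.28 and 1.30 in RIP1i, against 1.22, 1.25 and 1.23 in DMSO. The groups touched: from raw counts the ratio was 0.3410 in both RIP1i replicate 1 and DMSO replicate 2. On the log2 scale the difference between group means was 0.050. The ratio of Relb to Rela was 0.279, 0.326 and 0.260 in RIP1i, against 0.240, 0.222 and 0.291 in DMSO. These groups overlapped, with DMSO replicate 3 above 2 of the RIP1i libraries, and the log2 difference of 0.20 was 0.11 without RIP1i replicate 2 and 0.32 without DMSO replicate 3. Taking both noncanonical genes against all 3 canonical ones, the mean log2 CPM differed by -0.79 ± 0.11 in RIP1i and -0.91 ± 0.083 in DMSO (SD, n = 3 each). The change of 0.12 between groups was 0.061 without RIP1i replicate 2 and 0.17 without DMSO replicate 3. No test was made of these ratios, since the genes were chosen with results of these libraries known.

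Inhibitor and subunit mRNA were compared in the same way. The FPKM of Nfkbia over that of Rela was 2.03, 2.17 and 2.02 in RIP1i, against 1.83, 1.86 and 2.11 in DMSO, and the groups overlapped at DMSO replicate 3. The summed FPKM of the 3 classical inhibitors over that of the 5 subunits was 1.137, 1.162 and 1.136 in RIP1i, against 1.096, 1.113 and 1.131 in DMSO. Every RIP1i library was above every DMSO library in this ratio, by a narrow margin between RIP1i replicate 3 and DMSO replicate 3. Among all single genes tested, 13.5% did not overlap in CPM. The group means of the ratio were 1.15 ± 0.015 in RIP1i and 1.11 ± 0.017 in DMSO (SD, n = 3 each). Scaled to the longest coding transcript in place of the authors' gene length, the ratio was lower, at 0.801 ± 0.0057 in RIP1i and 0.783 ± 0.0081 in DMSO. It again did not overlap, but it is made from the same reads.

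**Figure D3:**
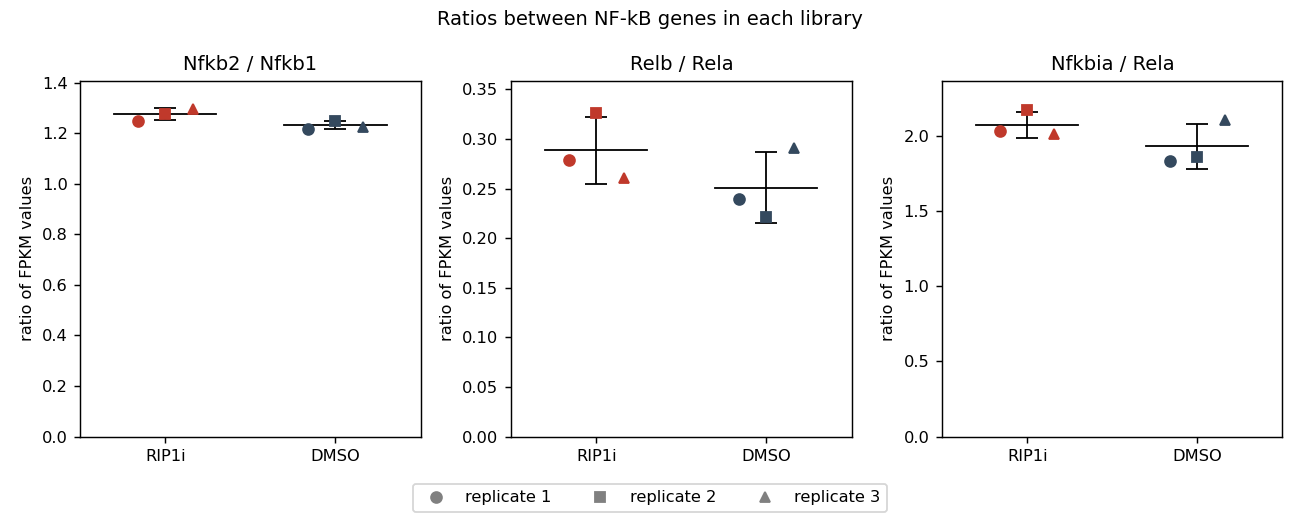
Ratios of FPKM values (y axis, from 0) within each library, for the RIP1i and DMSO groups, with the mean and SD (n = 3). The ratio of Relb to Rela ran from 0.260 to 0.326 in RIP1i and from 0.222 to 0.291 in DMSO.

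Levels between genes were compared per length. By the deposited FPKM, Nfkbia was the most abundant of the 10, at 44.95 ± 1.09 in RIP1i and 42.7 ± 1.28 in DMSO (SD, n = 3 each). Rela followed at 21.7 ± 0.388 in RIP1i and 22.1 ± 1.27 FPKM in DMSO. Nfkbie had 17.6 ± 1.68 in RIP1i and 16.1 ± 0.864 FPKM in DMSO, and Nfkb2 had 17.3 ± 0.890 in RIP1i and 16.2 ± 0.580 FPKM in DMSO. These neighbours did not differ beyond their spread, with Nfkbie above Nfkb2 in 4 of 6 libraries. Below them came Nfkb1 at 13.6 ± 0.750 in RIP1i and 13.1 ± 0.482 FPKM in DMSO, and Nfkbib at 9.09 ± 0.248 in RIP1i and 8.64 ± 0.425 FPKM in DMSO. Relb had 6.25 ± 0.621 in RIP1i and 5.53 ± 0.463 FPKM in DMSO, and Bcl3 had 3.97 ± 0.125 in RIP1i and 4.29 ± 0.307 FPKM in DMSO. Rel, at 3.67 ± 0.148 in RIP1i and 3.61 ± 0.247 FPKM in DMSO, and Nfkbiz, at 1.73 ± 0.152 in RIP1i and 2.01 ± 0.316 FPKM in DMSO, closed the order. Apart from Nfkbie and Nfkb2, neighbours in this order kept the same order in 6 of 6 libraries, with no overlap of their ranges.

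The place of Nfkb1 in that order depended on the gene length used. Reads per unit of deposited FPKM, which are proportional to the length the authors divided by, were 3.67 times as high for Nfkb1 as for Nfkb2. The longest coding transcripts in GENCODE M21 (mm10) differ by a factor of 1.07, and the union of all annotated exons by 2.63. The gap between 3.67 and 2.63 was not particular to Nfkb1. Relative to Nfkb2, reads per FPKM exceeded the union length for Rel (2.27 against 1.63), Relb (1.18 against 0.848) and Nfkbia (0.489 against 0.351). The excess was smaller for Rela (0.826 against 0.670) and Nfkbie (0.737 against 0.664). The length used for Nfkb2 was thus short for its exons beside these genes, and why was not tested. Scaled to the longest coding transcript, Nfkb1 stood at 39.9 ± 1.95 CPM per kb in RIP1i and 38.5 ± 1.27 in DMSO (SD, n = 3 each). It then came directly after Nfkbia and above Rela, at 21.8 ± 0.520 in RIP1i and 22.2 ± 1.34 CPM per kb in DMSO. On that scale the Nfkb2 to Nfkb1 ratio was 0.372 ± 0.0069 in RIP1i and 0.360 ± 0.0047 in DMSO. Relb also moved up, with a Relb to Rela ratio of 0.508 ± 0.059 in RIP1i and 0.441 ± 0.063 in DMSO. The share of Nfkb1 among the 5 subunits was 21.7% ± 0.637 in RIP1i and 21.7% ± 0.689 in DMSO by FPKM, and 43.7% ± 0.793 in RIP1i and 43.8% ± 0.864 in DMSO per kb of coding transcript. Whether Nfkb1 or Nfkb2 appeared more abundant was therefore set by the length scaling, while the fold change of a single gene between RIP1i and DMSO does not depend on it.

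**Figure D4:**
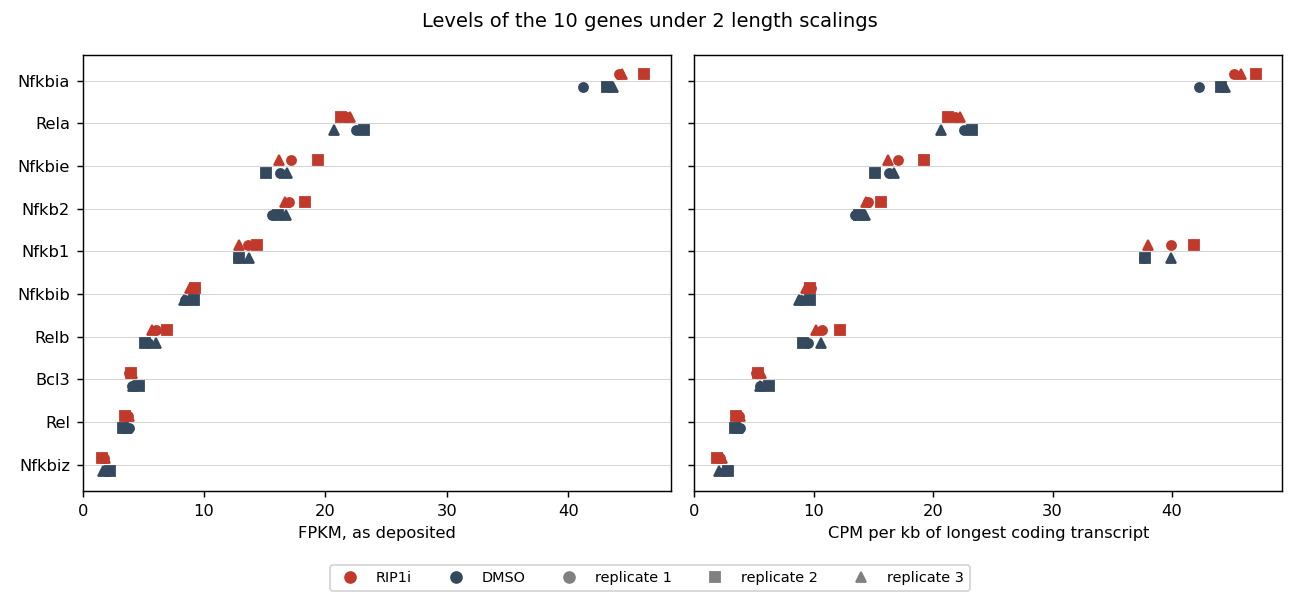
Levels of the 10 genes (rows) in each library, as deposited FPKM (left x axis) and as CPM per kb of the longest coding transcript (right x axis), with RIP1i above DMSO in each row. Nfkb1 is the gene that moves most between the panels, from 13.6 FPKM to 39.9 CPM per kb in RIP1i.

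Other genes of the pathway gave no call in either direction. Of 61 listed genes found in the table and outside the 10, 58 were tested, 28 were fitted higher and 30 lower, and 0 passed the edgeR adjusted threshold. Unadjusted p was under 0.05 for 4 of the 58, against 6.21% of all genes. The median log2 fold change was -0.0023, against 0.0025 over all genes. Among the 7 canonical activating kinase genes 3 were fitted higher and 4 lower, with Chuk, which encodes IKK-alpha, at 0.080 ± 0.053 (SE), Tab1, a TAK1 adaptor gene, at -0.099 ± 0.071, and Ikbkb, which encodes IKK-beta, at -0.045 ± 0.050. The 7 regulators of the noncanonical branch had 5 higher and 2 lower, with Traf3, which encodes the adaptor that keeps NIK low, at 0.088 ± 0.064 and Map3k14, the NIK gene itself, at 0.037 ± 0.091. Map3k14 falls outside the rule for named genes and is given because it encodes the kinase of that branch. Of the 6 receptors of that branch 4 were fitted higher, and Tnfrsf1b, which encodes TNF receptor 2, was at 562 ± 33.1 CPM in RIP1i and 614 ± 35.8 CPM in DMSO (SD, n = 3 each). The turnover genes of IkB proteins and p105 were split 3 to 3, with Map3k8, the kinase bound by p105, at -0.088 ± 0.055.

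Negative feedback and target genes also split. Of 8 feedback genes 4 were fitted higher and 4 lower. Zc3h12a, which encodes an RNase that degrades inflammatory mRNA, had 20.0, 19.8 and 20.7 CPM in RIP1i, against 22.7, 23.7 and 21.2 CPM in DMSO. Its groups did not overlap, as for 9 of the 58 tested pathway genes and 13.5% of all genes. The log2 fold change of Zc3h12a was -0.16 ± 0.057 with an edgeR adjusted p of 0.777 (unadjusted 0.0231). Commd1, which encodes a protein that promotes RelA degradation, was at 0.13 ± 0.061. The 25 canonical target genes had 11 higher and 14 lower, with a median of -0.013. They included Icam1, an adhesion ligand gene, which had 151, 151 and 153 CPM in RIP1i, against 134, 140 and 140 CPM in DMSO. Icam1 had a log2 fold change of 0.13 ± 0.036 and an edgeR adjusted p of 0.777 (unadjusted 0.00735). Ccl5, a T cell chemokine gene, went the other way, with 5.31, 5.01 and 5.92 CPM in RIP1i and 6.12, 6.72 and 6.61 CPM in DMSO, and Vcam1, another adhesion ligand gene, was at -0.27 ± 0.12. Of 5 target genes known for the noncanonical branch in lymphoid stroma, Cxcl13, Ccl19 and Ccl21a had 0 counts in all 6 libraries. The B cell survival factor gene Tnfsf13b was at -0.10 ± 0.19 and the chemokine gene Cxcl12 at -0.28 ± 0.59.

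Genes with the most similar profile over the 6 libraries were looked up for 4 subunits among the 8526 genes that averaged 10 CPM or more, as a description. Picked from so many genes over 6 points, high values are unavoidable. For Nfkb2 these were Twf2, a twinfilin gene (Pearson r = 0.997), Irf5, an interferon regulatory factor gene (0.994), and Lgals3, the galectin-3 gene (0.991). For Relb they were the thymidylate synthase gene Tyms (0.996), Ugt1a7c (0.995), whose exons are shared with other genes of its cluster, and Crlf2, a subunit gene of the TSLP receptor (0.994). Nfkb1 was closest to Psmb1, a proteasome subunit gene (0.999), the histone gene Hist1h2af (0.992), which has near-identical copies, and Angptl2 (0.992). Rela was closest to Fhl3 (0.990), the ubiquitin ligase gene Rnf41 (0.988) and the kinase gene Cdk18 (0.987).

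Marker genes of macrophages and of other cells varied between libraries. Macrophage markers were abundant, with a summed level over 10 genes of 46889 to 55658 CPM in RIP1i and 53253 to 60653 CPM in DMSO, mostly from Lyz2. In this sum RIP1i replicate 2 and DMSO replicate 3 were the lowest of their groups. As the mean of centred log2 CPM, macrophage markers stood at -0.014, 0.074 and -0.072 in RIP1i, against -0.051, -0.057 and 0.12 in DMSO. On that scale RIP1i replicate 2 and DMSO replicate 3 were the highest of their groups, as for Nfkb2, Relb and Nfkbie. The 10 markers of mature dendritic cells summed to 811 to 872 CPM in RIP1i and 680 to 798 CPM in DMSO, and 9 of the 10 were fitted higher in RIP1i, with a median log2 fold change of 0.13. The largest part came from the chemokine gene Ccl17, at 515 ± 26.5 CPM in RIP1i and 418 ± 37.0 CPM in DMSO (SD, n = 3 each). Ccl17 and Tmem123, 2 of the 10, had an unadjusted edgeR p under 0.05, against 6.21% of all genes, and 0 passed the adjusted threshold. In both, every RIP1i library lay above every DMSO library, as for 7.36% of all genes. Without Ccl17 the other 9 summed to 320, 362 and 322 CPM in RIP1i, against 299, 281 and 337 CPM in DMSO, and the groups overlapped. Macrophages can express several of them, among them Ccl17 and Ccl22, and Cd83 is also on the list of canonical target genes. As the mean of centred log2 CPM, they stood at 0.022, 0.23 and -0.066 in RIP1i, against -0.14, -0.17 and 0.13 in DMSO. DMSO replicates 2 and 1 were lowest and RIP1i replicate 2 highest, as for Relb. Stromal markers, the 10 genes led by Col1a2, ran the other way, with 262, 93.1 and 209 CPM in RIP1i, against 224, 388 and 102 CPM in DMSO, and the groups overlapped. Of the 10, 9 were fitted lower, with a median log2 fold change of -0.38, and 0 had an unadjusted edgeR p under 0.05. RIP1i replicate 2 and DMSO replicate 3, the libraries with the highest Nfkb2, Relb and Nfkbie of their groups, had the lowest stromal sum of theirs. Whether these cells have a part in the Relb and Nfkb2 values was not tested. In bulk RNA, fewer cells of a type and less RNA per cell cannot be told apart.

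The other marker lists varied between libraries as well. Dendritic cell markers, 7 of 8 tested, summed to 1316 to 1459 CPM in RIP1i and 1209 to 1366 CPM in DMSO, nearly all from Itgax, which macrophages also express. Of the 7, 5 were fitted higher, with a median log2 fold change of 0.068, and 0 had an unadjusted edgeR p under 0.05. Neutrophil markers, 9 of 10 tested, summed to 467, 660 and 225 CPM in RIP1i, against 460, 228 and 628 CPM in DMSO, and the groups overlapped. Of the 9, 8 were fitted higher, but the median log2 fold change was only 0.043, and 0 had an unadjusted edgeR p under 0.05. In both lists RIP1i replicate 2 and DMSO replicate 3 were the highest libraries of their groups, as for Nfkb2, Relb and Nfkbie, and the part of these cells in those values was not tested. Mast cell and basophil markers summed to 8.38 to 19.5 CPM in RIP1i and 5.33 to 17.9 CPM in DMSO, with 2 of 5 fitted higher. For lymphocytes and NK cells only Klrb1c and Nkg7 of 8 markers were tested, at a sum of 1.54 to 1.88 CPM in RIP1i and 1.69 to 2.01 CPM in DMSO, with 1 of 2 fitted higher. The T cell markers Cd3d and Cd3e and the B cell markers Cd79a and Ms4a1 had 0 to 4 counts in every library.

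**Figure D5:**
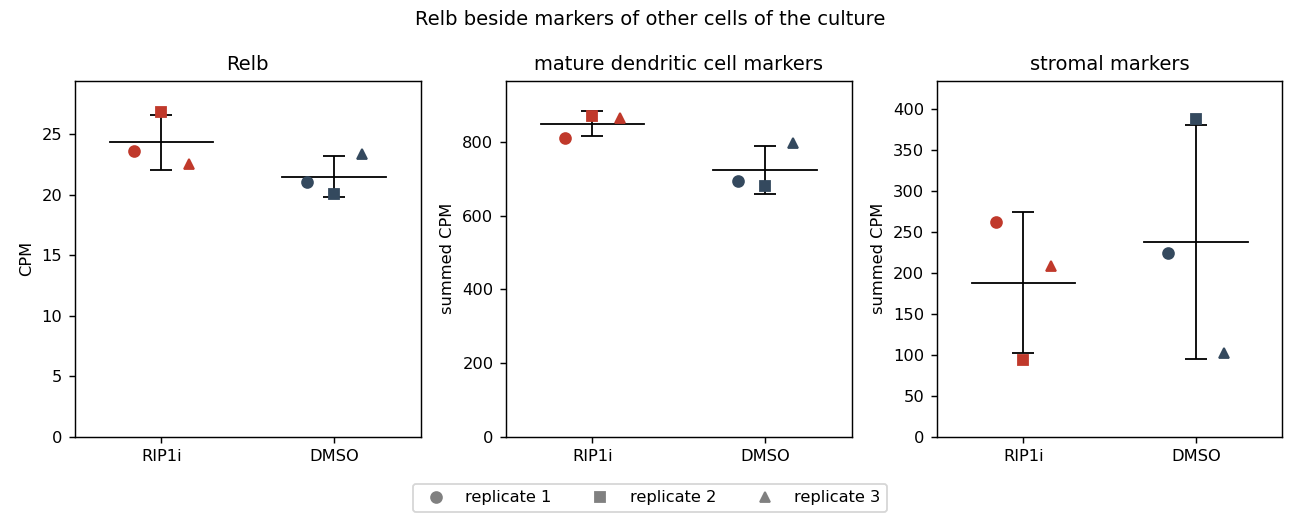
Relb CPM, the summed CPM of 10 mature dendritic cell markers and that of 10 stromal markers (y axes, from 0) in each RIP1i and DMSO library, with the mean and SD (n = 3). Among RIP1i libraries replicate 2 had the highest Relb (26.9 CPM) and the lowest stromal sum (93.1 CPM), and among DMSO libraries replicate 3 did (23.4 and 102 CPM).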

How the data were processed

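The authors deposited raw read counts per gene and FPKM values for the same 6 libraries. Per the submitters' processing notes, the tools included STAR 2.5.3a, CASAVA 1.8.4, DESeq2 1.14.0, Subread 1.4.6-p3 and featureCounts, with build mm10. What each tool did, the annotation and the strand setting are not stated in these sources. The deposited FPKM hold the same reads, scaled by median-of-ratios factors over all genes (largest deviation 0.00017% over 6301 well-covered genes), and are used for levels only. The median-of-ratios scaling among the alternatives took its factors from the filtered genes, so the 2 can differ slightly, as for Bcl3, and are not independent.

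Genes were filtered with filterByExpr (minimum count 10, minimum total 15), which left 14857. RIP1i was compared with DMSO by the 2-sided quasi-likelihood test of edgeR 4.0.16 (R 4.3.3) with TMM scaling, and p-values were adjusted by Benjamini-Hochberg over all genes tested, with 0.05 as threshold. The code was tested on simulated data. SE were taken from the F statistic. Alternatives used DESeq2 1.42.0, limma 3.58.1, other scalings and filters, and each library left out. Log2 CPM for similarity and marker levels used a prior count of 2.

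The members and lists were chosen with earlier results of these data known. Apart from the 10 genes, up to 3 genes of each pathway list with the smallest p could be named.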

Additional observations from a re-analysis of the deposited data

How the results depend on the processing

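The 10 fold changes were recomputed under 10 settings other than leaving out a library, and all 100 values kept their sign and stayed on the same side of the threshold, with a smallest adjusted p of 0.732. Unadjusted p stayed over 0.05 except for Relb in edgeR with no filter, at 0.0486. Over these settings Relb ran from 0.15 to 0.18, Nfkb2 from 0.093 to 0.10, and Nfkbiz from -0.22 to -0.13. The number of genes called in the whole table was 0 in edgeR, 2 with DESeq2 and 4 with limma-trend on log2(FPKM + 1) without a filter. With each library left out in turn the number was 0. The smallest adjusted p of any of the 10 genes was then 0.772, and the sign turned only for Rela, which ran from -0.080 to 0.0013, and Rel, from -0.033 to 0.057. Unadjusted edgeR p fell under 0.05 without DMSO replicate 3 for Relb (0.0334) and Nfkbiz (0.0152). Without RIP1i replicate 3 it did so for Relb (0.0369) and Nfkbie (0.0381). With the replicate number as a block, 0 genes were called, and Relb was at 0.18 and Nfkb2 at 0.10. Whether the replicate numbers pair the samples is not said in the labels. Deviations from the group means correlated at 0.0058, -0.53 and -0.48 between same-numbered libraries, over 14857 genes. None of the RIP1i libraries correlated best with its own number. RIP1i replicate 2 correlated best with DMSO replicate 3 (0.60). RIP1i replicates 1 and 3 did so with DMSO replicate 2 (0.29 and 0.40). These correlations cannot exclude pairing, since marker levels also differed between the libraries of a group. Among the 10 genes the lowest count in a library was 331, for Nfkbiz, which also had the largest SE, 0.13.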
